A study of Xenopus tropicalis with 31 samples.

Results

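Sorted pax6 cells of the regenerating tail one day after amputation were compared with the same kind of cells taken before or immediately after the cut. The comparison used 3 samples at 24 hr post amputation (24hpa) against 4 baseline samples, 2 from uninjured tail tips and 2 from 0hpa, which makes 7 of the 27 samples with counts in the series. All 7 samples came from Xenopus tropicalis tadpoles that carried the transgenes pax6:GFP, cryga:RFP and actc1:RFP. This held in the baseline as at 24hpa, and tails were cut at NF stage 41. The count columns of the all-tissue samples used for comparison are labelled WT. The study's methods describe GFP+ and GFP- cells pooled for them, so the genotype of the all-tissue samples is not settled here. Its part in comparisons with pax6 cells was not tested. Cells of the 7 samples were gated on GFP, so a pax6 cell here is one in which a pax6 promoter drove the reporter. Each library holds cells pooled from many tails. In the study's single-cell RNA sequencing of separately collected GFP+ cells, only a minority fell into neural clusters. Among those neural cells, differentiated neurons took a larger share at 24hpa than in uninjured tails. The part of this mix in the comparison was not tested. Chromatin accessibility was measured by ATAC-Seq, in which the Tn5 transposase inserts adapters where DNA is open, and was counted in 124349 windows of 400 bp around peak summits. Uninjured replicate 3 and 0hpa replicate 1 held 143 and 11 counts and were left out. The labels do not say that replicates came from separate clutches, so a p-value here measures the spread between these samples, which may be partly technical.

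Pax6 is a paired box transcription factor of the developing brain, eye and spinal cord, and in the tadpole tail it marks neural progenitor cells along the central canal. After amputation the cut end of the cord closes into the neural ampulla, from which progenitors both divide and give rise to new neurons. Open chromatin marks promoters and enhancers that transcription factors can reach, and a window's nearest gene is a neighbour by position, which need not be the gene it regulates.

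The 7 libraries held 3069659 to 12130125 counts. On a multidimensional scaling plot of the most variable windows, uninjured replicate 2 lay at -1.94 on the first axis and the other 6 libraries between -0.01 and 0.49. Its median correlation with the other libraries was 0.823, against 0.875 to 0.928 for the rest. The 0hpa replicate 2 library, the shallowest, lay at 1.61 on the second axis and the others between -0.29 and -0.25. Both of these libraries are in the baseline. Calls that turn on uninjured replicate 2 are given with and without it, while some other values are given for all samples only.

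The gate was checked against pax6 itself. Summed over the 12 windows nearest pax6, accessibility was 61.8 and 69.6 counts per 1000000 counts of the library (CPM) in the uninjured samples, 62.6 and 64.4 at 0hpa and 57.1, 64.9 and 62.6 at 24hpa. In the 8 all-tissue samples of the same timepoints the sum ran from 46.8 to 61.4 CPM, so the 4 baseline pax6 samples lay above every all-tissue sample and 1 of the 24hpa samples did not. The share of all genes that separate in this way was not taken. At the window nearest the pax6 TSS the tissues overlapped. Its baseline held 2.81 to 4.91 CPM in pax6 cells and 2.86 to 3.90 CPM in all-tissue cells, and the 24hpa means were 3.49 and 3.75 CPM. Reads from the transgene's pax6 promoter and from the gene's own cannot be told apart in these counts. Summed over 14 neural progenitor genes with a window no more than 500 bp from a transcription start site (TSS), the baseline median was 67.0 CPM in pax6 cells and 66.5 CPM in all-tissue cells, and for 12 epidermal genes it was 55.6 and 65.9 CPM. At 24hpa the progenitor median was 70.5 CPM in pax6 cells (63.4 to 81.0) and 83.4 CPM in all-tissue cells (75.2 to 101.0), so it was not higher in pax6 cells. The epidermal medians were then 57.1 and 85.4 CPM. For 13 neuron genes with such a window the medians were 76.0 and 73.0 CPM in the baseline and 78.6 and 77.4 CPM at 24hpa. The muscle list had 1 such window, that of actc1, a cardiac and early skeletal actin whose promoter is also in the transgene, and it held 5.12 to 10.1 CPM in the pax6 baseline and 2.43 to 4.58 CPM in the all-tissue baseline. None of these promoter windows was at 0 in all 7 pax6 samples, but only 4 to 33 of all 124349 windows were empty in any of these libraries, so a count above 0 does not show which cells it came from. Between 24hpa and baseline pax6 samples the epidermal sum ran from 56.7 to 61.2 and from 47.1 to 76.0 CPM, and the sum over 8 blood, vessel and immune genes from 66.6 to 70.3 and from 47.1 to 64.9 CPM. The last of these groups did not overlap, while those of the other lists summed here did. Among single genes with their windows summed, 4.2% had every 24hpa sample above the baseline. The 8 genes come from a list of 30, and 1 of them, cebpb, is named below for its own separation. The part of this sum in the results was not tested.

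No window differed between 24hpa and baseline at an adjusted p under 0.05. Of 124332 windows tested with edgeR's quasi-likelihood test, 0 were called (0.0% of those tested), and the smallest adjusted p was 0.933. At an unadjusted p under 0.05 there were 3209 windows higher (2.58%) and 3247 lower (2.61%), and at an unadjusted p under 0.01 there were 656 higher (0.528%) and 514 lower (0.413%). DESeq2 called 0 windows, with 2690 at an unadjusted p under 0.05, and edgeR's likelihood ratio test called 0, with 7530. The p-values were spread almost evenly from 0 to 1, with 5.19% of windows in the lowest of 20 bins. In all-tissue cells, 3 samples against 5, the same bin held 10.2% of windows, and 69 windows were called higher (0.0555%) and 21 lower (0.0169%). That fit also held the pax6 samples and shared their spread, whereas the pax6 fit held pax6 samples alone. The counts of the tissues were therefore not taken at equal power.

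**Figure D1:**
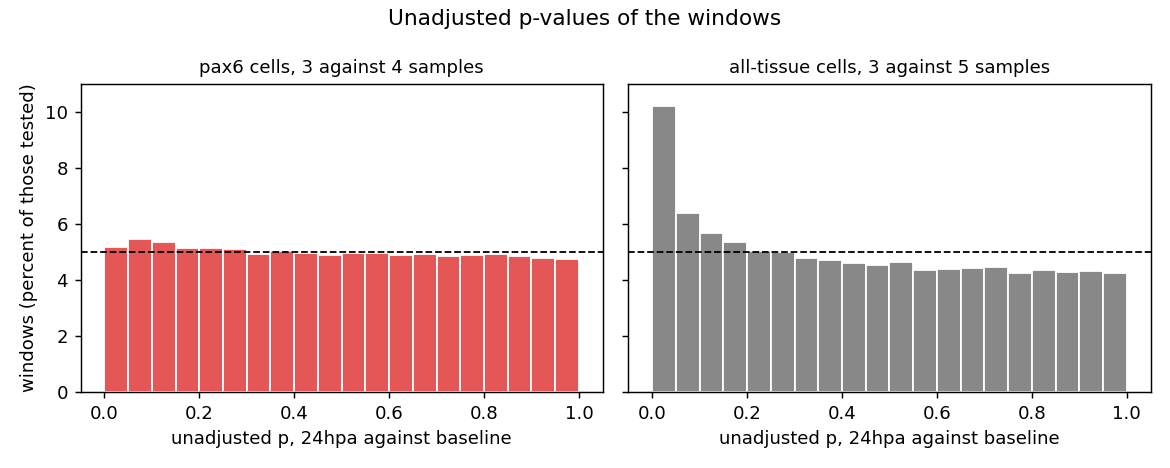
Share of windows (percent of those tested, y axis) in each of 20 bins of the unadjusted p of the 24hpa against baseline comparison (x axis), for pax6 cells (left) and all-tissue cells (right); the dashed line is at 5%. In pax6 cells the lowest bin holds 5.19% of windows and the bars stay near the line, while in all-tissue cells the lowest bin holds 10.2%. The all-tissue fit also held the pax6 samples, so the panels are not at equal power.

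The intervals state how large a difference in window counts these libraries leave room for. The part of those counts that came from closed chromatin was not tested. The 95% interval of a window's log2 fold change had a median half-width of 0.48, which is 1.39-fold. For 92.5% of windows (113945 of 123167 with an interval) the whole interval lay within 2-fold of no difference, and for 37.7% it lay within 1.5-fold. Precision followed accessibility, since the share within 1.5-fold was 6.76% in the least accessible tercile of windows, 32.8% in the middle one and 73.6% in the most accessible one. With windows summed over their nearest gene, the median half-width was 0.28 and the interval lay within 1.5-fold for 77.9% of genes.

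The 12 windows with the smallest p among those higher in all 3 samples at 24hpa lay next to tcf4, lep, trrap-like, med10, cplx1, dmxl2, fgfr1op2, lasp1, rassf3, psmc5, ubxn2b and cpa3. They were picked for their p and their separation in this same comparison, and none passed the adjusted test, where each stood at 0.933. Complete separation was common, with 4431 windows (3.56%) above and 4333 (3.49%) below the whole baseline. Their log2 fold changes ran from 0.62 to 1.26. Of these windows 2 lay within 500 bp of a TSS and 6 lay more than 5000 bp away.

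The leading window lay 2583 bp upstream of tcf4, at chr1:189632995-189633394 in version 9.0 of the genome. Tcf4 is a basic helix-loop-helix E-protein, the class of factor with which proneural proteins pair to bind DNA. This window held 34.7 and 28.9 CPM in the uninjured samples, 33.6 and 39.3 CPM at 0hpa, and 53.5, 49.9 and 59.0 CPM at 24hpa. Every 24hpa sample was above every baseline sample. The log2 fold change was 0.65 (SE 0.13, 95% interval 0.38 to 0.92), a 1.57-fold difference, at an unadjusted p of 2.34e-05. The other 9 windows nearest tcf4 ran from -0.21 to 0.41, and the sum of its windows differed by 0.30 (SE 0.08) at an adjusted p of 0.776 in the edgeR fit.

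The window 28115 bp upstream of lep, at chr3:78279533-78279932, came next. Lep encodes leptin, a secreted hormone that signals through a cytokine receptor, and its zebrafish relative lepb is known for its induction in injured fin and heart. The window held 47.1 and 34.8 CPM in uninjured samples, 49.2 and 45.4 CPM at 0hpa, and 82.2, 63.4 and 64.2 CPM at 24hpa. The groups did not overlap, and 24hpa replicate 1 was the highest sample. The log2 fold change was 0.66 (SE 0.14, 95% interval 0.38 to 0.94), or 1.58-fold. Lep has 4 windows in all, and the other 3 had log2 fold changes of -0.36 to 0.21, so the summed difference of 0.54 came from this window.

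The remaining windows of the higher set belonged to genes of varied roles. Cplx1 encodes complexin, a SNARE-binding protein of synaptic vesicle release. Its window, 45421 bp downstream of the TSS, held 16.0 and 10.2 CPM in uninjured samples, 14.7 and 13.2 CPM at 0hpa and 20.2, 23.0 and 22.9 CPM at 24hpa. Dmxl2 encodes a regulator of the proton pump on synaptic vesicles. Its promoter window, 147 bp upstream of the TSS, held 12.5 to 15.9 CPM in the baseline and 28.3, 21.8 and 18.7 CPM at 24hpa, a log2 fold change of 0.64 (95% interval 0.33 to 0.95). Each of these genes has many other windows, 19 for cplx1 and 37 for dmxl2, and their sums differed by 0.04 and -0.04. Med10, a subunit of the Mediator complex, had a weak window that lay between 3.58 and 5.50 CPM in the baseline and between 7.45 and 10.4 CPM at 24hpa. The weakest of the windows, next to the carboxypeptidase gene cpa3, went from 0.978 to 1.79 CPM in the baseline to 2.94 to 4.05 CPM at 24hpa, which gave the widest interval of the set, 0.61 to 1.90 on the log2 scale.

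**Figure D2:**
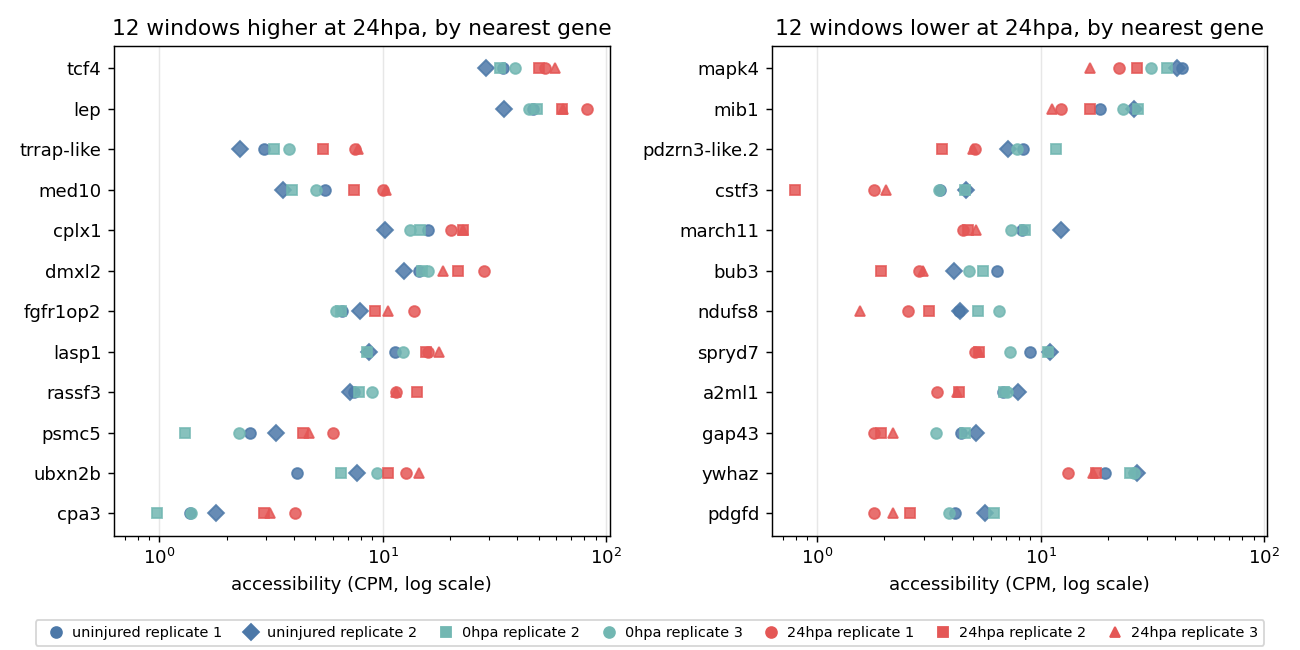
Accessibility (CPM, log scale, x axis) of the 12 windows with the smallest p in each direction, one line per nearest gene, with a point for each of the 7 samples (blue, uninjured; green, 0hpa; red, 24hpa). The windows were chosen because the red points lie outside the baseline points; the tcf4 window lies at 49.9 CPM or above at 24hpa and at 39.3 CPM or below in the baseline.

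On the lower side the 12 windows lay next to mapk4, mib1, pdzrn3-like.2, cstf3, march11, bub3, ndufs8, spryd7, a2ml1, gap43, ywhaz and pdgfd, with log2 fold changes from -1.37 to -0.59. They too were picked for this comparison, and each had an adjusted p of 0.933. The window 28498 bp upstream of mapk4, at chr1:191629679-191630078, held 42.8 and 40.9 CPM in uninjured samples, 36.9 and 31.1 CPM at 0hpa, and 22.5, 26.9 and 16.7 CPM at 24hpa. Mapk4 encodes an atypical mitogen-activated protein kinase. Its log2 fold change was -0.76 (SE 0.15, 95% interval -1.08 to -0.45). The other 3 windows of mapk4 had log2 fold changes of 0.04 to 0.36.

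Mib1 encodes the ubiquitin ligase that Notch ligands need to be taken up and to signal. Its window, 80046 bp downstream of the TSS, held 18.4, 26.1, 27.4 and 23.3 CPM in the 4 baseline samples and 12.3, 16.7 and 11.2 CPM at 24hpa, a log2 fold change of -0.77 (95% interval -1.11 to -0.44). Of the 8 windows of mib1, 2 were lower at an unadjusted p under 0.05 and 0 were higher. Its summed windows differed by -0.33 (SE 0.08).

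Gap43 is a growth cone protein made by neurons that extend axons. The window 2130 bp upstream of its TSS was weak, at 4.42, 5.12, 4.57 and 3.41 CPM in the baseline and 1.80, 1.92 and 2.18 CPM at 24hpa. The samples did not overlap and the log2 fold change was -1.09 (95% interval -1.67 to -0.52). The 9 other gap43 windows ran from -0.21 to 0.08, and the sum of all 10 differed by -0.10 (95% interval -0.25 to 0.05).

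Among the lower windows, 3 lay within 500 bp of a TSS. The bub3 promoter window, at the start of a gene of the spindle checkpoint, held 4.09 to 6.38 CPM in the baseline and 2.85, 1.92 and 2.96 CPM at 24hpa. The other 4 bub3 windows had log2 fold changes of up to 0.09. The promoter window of ndufs8, a subunit of respiratory complex I, held 4.32 to 6.50 CPM in the baseline and 1.56 to 3.16 CPM at 24hpa, with a log2 fold change of -1.07 (95% interval -1.61 to -0.52). The third was the window of the protease inhibitor gene a2ml1, 215 bp from its TSS, with 6.78 to 7.93 CPM in the baseline and 3.45 to 4.29 CPM at 24hpa.

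The neighbouring timepoints of the same sorted cells give the levels at which these windows stood before and after 24hpa. The tcf4 window averaged 40.8 CPM at 6hpa, 54.2 CPM at 24hpa and 44.0 CPM at 72hpa. For lep the averages were 45.1, 69.9 and 53.4 CPM, so both windows had their highest group mean at 24hpa. The mapk4 window already stood at 26.5 CPM at 6hpa and at 26.2 CPM at 72hpa, against 22.0 CPM at 24hpa. Gap43 was similar, at 2.41, 1.97 and 2.27 CPM. Because the windows were chosen on the 24hpa samples, an extreme mean at 24hpa is part of the choice, and no test was made across the timepoints.

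**Figure D3:**
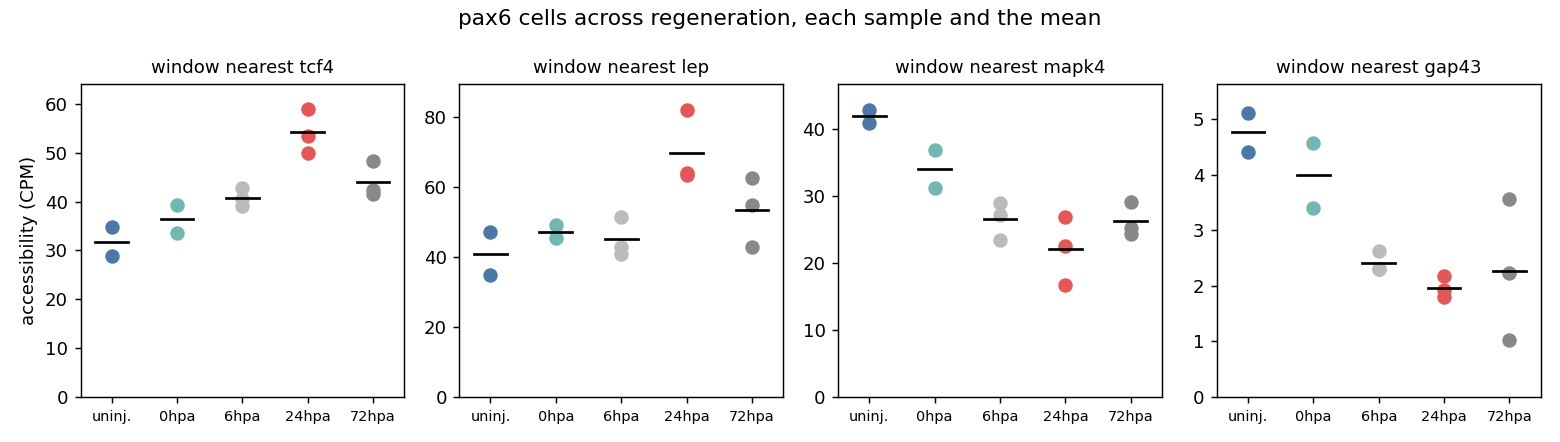
Accessibility (CPM, y axis) of the windows nearest tcf4, lep, mapk4 and gap43 in pax6 cells at each timepoint (x axis), with a point per sample and a black bar at the group mean. The 24hpa means are 54.2, 69.9, 22.0 and 1.97 CPM; the windows were chosen on the 24hpa and baseline samples.

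Summing the windows of each nearest gene gave the same outcome. Of 23175 genes, edgeR called 0 (0.0%), with 134 higher (0.578%) and 110 lower (0.475%) at an unadjusted p under 0.01, and 579 higher (2.5%) and 705 lower (3.04%) at an unadjusted p under 0.05. The groups did not overlap for 973 genes that were higher (4.20%) and 735 that were lower (3.17%). Lep had the smallest adjusted p, 0.174. Its summed accessibility was 54.1 and 45.0 CPM in uninjured samples, 56.4 and 53.9 CPM at 0hpa and 88.8, 70.1 and 72.9 CPM at 24hpa, a log2 fold change of 0.54 (SE 0.09, 95% interval 0.35 to 0.73).

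The genes next in order on the higher side were rbks, socs3-like.1, ube2d1, cpa3, tcf4, fgfr1op2 and acaa1. Like lep, they were picked for the p and the separation of their sums in this same comparison. A shared direction among the windows of such a gene is partly fixed by that choice, and neighbouring windows can share a fragment. Rbks, which encodes the sugar kinase ribokinase, held 22.5 to 26.3 CPM in the baseline and 34.7 to 36.3 CPM at 24hpa, a log2 fold change of 0.49 (SE 0.10, adjusted p = 0.639, edgeR). Socs3-like.1 takes its name from the suppressors of cytokine signalling. It held 29.9, 27.6, 33.3 and 31.8 CPM in the baseline and 41.7, 39.6 and 41.1 CPM at 24hpa. All 7 of its windows had a log2 fold change above 0, between 0.10 and 0.61, and its sum differed by 0.40 (SE 0.09). Acaa1, a thiolase of peroxisomal fatty acid breakdown, and ube2d1, a ubiquitin-conjugating enzyme, differed by 0.32 and 0.62.

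On the lower side the genes were cstf3, mapk4, mib1, sass6, fen1, zpbp2, pepd and ywhaz. These too were picked on their sums, so a shared direction among their windows is partly fixed by the choice. Sass6 encodes a protein of the cartwheel from which centrioles are built, and fen1 a nuclease of DNA replication and repair. Sass6 was the nearest gene of 40 windows, of which 35 had a log2 fold change below 0 and 10 were lower at an unadjusted p under 0.05. Its summed level was 447 to 510.0 CPM in the baseline and 393, 416 and 376 CPM at 24hpa, a log2 fold change of -0.28 (SE 0.07, adjusted p = 0.776, edgeR). Cstf3, a factor of messenger RNA 3' end cleavage, had the largest difference of these genes, -0.71 (95% interval -1.03 to -0.40). By number of windows at an unadjusted p under 0.01, hnrnpa3 led the higher side with 3 of 15 and sass6 the lower side with 3 of 40. The next in order on the higher side, such as cebpb with 2 of 16 and acvr2a with 2 of 50, were among 10 genes with 2 such windows.

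A single baseline library decided whether anything was called. Without uninjured replicate 2, 4 windows and 4 genes had an adjusted p under 0.05 in edgeR. The windows were those of uts2, mhc1a and Xetrov90027200m.g, which were higher, and that of mapk4, which was lower. The genes, all higher, were uts2, mhc1a, lep and LOC101732348. Leaving out any other sample of the 7 called 0 windows and 0 genes.

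The 4 genes called in this way are of 2 kinds. Lep is separated with all 7 samples, which leaving out the library cannot undo. Without it, lep's summed log2 fold change was 0.49, lower than the 0.54 of all 7 samples, at an adjusted p of 0.00511. For the other 3 genes the library left out was itself at or near the level of 24hpa. Uts2, which encodes the peptide urotensin II, has 1 window, 11521 bp downstream of the TSS. It held 19.1 CPM in uninjured replicate 1 and 46.6 CPM in uninjured replicate 2, then 20.5 and 24.8 CPM at 0hpa and 38.2, 34.6 and 38.2 CPM at 24hpa. The log2 fold change was 0.46 (95% interval -0.22 to 1.15) with all samples and 0.75 (adjusted p = 0.000673, edgeR) without that library. The sum over the class I major histocompatibility gene mhc1a was 64.7 CPM in uninjured replicate 2, 36.7 to 42.7 CPM in the other baseline samples and 54.5 to 62.8 CPM at 24hpa. LOC101732348 held 57.8 CPM in that library, within its 24hpa range of 55.8 to 65.6 CPM. The groups of these 3 genes therefore overlap when all samples are kept. With a baseline of the 2 deepest libraries, uninjured replicate 1 and 0hpa replicate 3, the genes called were lep, mhc1a and uts2, and 0 windows were called.

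**Figure D4:**
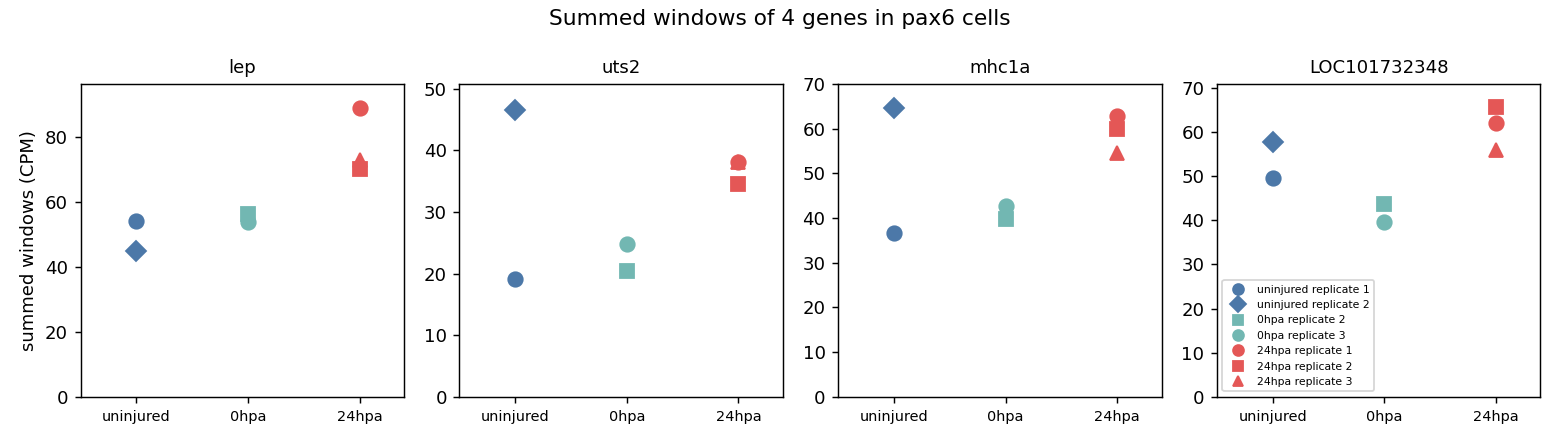
Summed accessibility (CPM, y axis) of the windows of lep, uts2, mhc1a and LOC101732348 in each pax6 sample (x axis, group). The diamond is uninjured replicate 2, which lies at 45.0 CPM for lep, below the 24hpa samples, and at 46.6 CPM for uts2, above them.

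The uninjured and 0hpa samples of the baseline were compared with each other. Between 0hpa and uninjured samples edgeR called 0 of 124332 windows (0.0%), with 6587 (5.30%) at an unadjusted p under 0.05. Without uninjured replicate 1 the comparison rests on uninjured replicate 2 alone, and 3364 windows were called, 1829 higher and 1535 lower at 0hpa. That fit assumes that the lone sample varies like those of the other groups. Leaving out uninjured replicate 2 or either 0hpa sample, which also leaves 1 sample in an arm, called 0 windows. Against uninjured samples alone, and against 0hpa samples alone, 24hpa gave 0 calls, with 8387 and 6845 windows at an unadjusted p under 0.05.

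A list of 22 genes was drawn from the study's account of 24hpa. It holds 14 genes that the study named for their accessibility at this timepoint, 4 transcription factors of its network prediction (meis1, pbx3, etv1 and runx2) and 4 neuronal expression markers (l1cam, uchl1, nsg1 and ass1). The study took its 24hpa regions against 6hpa and 72hpa, which is a different contrast from the baseline used here. It used the same 24hpa samples, so the list is not independent evidence of a direction. All 22 genes had windows, 302 in total. Of these windows 0 were called, 12 were higher and 4 lower at an unadjusted p under 0.05, together 5.30% against 5.19% of all windows, and their median log2 fold change was 0.025 against -0.006. At the window nearest the TSS the log2 fold change was above 0 for 15 of the 22 genes and ran from -0.30 to 0.66, with a median of 0.14. Only those of pbx3 and runx2, both from the network prediction, had an unadjusted p under 0.05 among these 22 windows. For the 14 genes named for accessibility, 7 of 212 windows were higher and 3 lower at an unadjusted p under 0.05 (4.72%), and the median at the TSS-nearest window was 0.10, with 10 of the 14 above 0. Over all windows within 500 bp of a TSS the median was 0.017. For the TSS-nearest windows of all genes no median or share above 0 was taken. Uninjured replicate 2 was the lowest of the 7 samples at 33.6% of them. The medians and counts above 0 of this list were not taken without that library.

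Pbx3 is a TALE homeodomain factor, a partner of Hox and Meis proteins. The window at its TSS was weak, with 2.46 and 0.768 CPM in uninjured samples, 3.26 and 3.17 CPM at 0hpa, and 4.50, 3.28 and 4.52 CPM at 24hpa. The groups were separated by a narrow margin, since 24hpa replicate 2 lay just above the highest baseline sample. The log2 fold change was 0.66 (95% interval 0.06 to 1.26). It ran from 0.34 against 0hpa samples alone to 1.08 against uninjured samples alone and 1.48 when the libraries were thinned to the shallowest. A second window, 64756 bp upstream, held 3.91 to 6.26 CPM in the baseline and 7.65, 8.36 and 7.95 CPM at 24hpa. Summed over 11 windows, pbx3 differed by 0.19 (SE 0.09, adjusted p = 0.873, edgeR).

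Runx2, a Runt domain factor best known from bone formation, held 6.78, 6.40, 6.20 and 4.96 CPM at its TSS window in the baseline and 7.35, 9.26 and 8.10 CPM at 24hpa. The log2 fold change was 0.47 (95% interval 0.08 to 0.87), and 3 of its 10 windows were higher at an unadjusted p under 0.05. Meis1, another TALE homeodomain factor, held 1.79 to 8.81 CPM at its TSS-nearest window in the baseline and 6.15 to 7.01 CPM at 24hpa. Its sum over 21 windows differed by -0.09 (95% interval -0.25 to 0.07), with 0 windows at an unadjusted p under 0.05. Isl1, a LIM homeodomain factor of motor neurons, had 33 windows, of which 0 were at an unadjusted p under 0.05, and its sum differed by -0.02 (95% interval -0.16 to 0.12).

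For the axon and migration genes of this list, single windows went both ways. Unc5a, a netrin receptor, had a window 94634 bp downstream of its TSS with 4.32, 4.35, 2.61 and 4.31 CPM in the baseline and 7.35, 7.0 and 5.92 CPM at 24hpa, a log2 fold change of 0.73 (95% interval 0.29 to 1.17). Its 14 windows together differed by 0.00 (95% interval -0.16 to 0.16). Sema6a, a transmembrane semaphorin, had a window 169033 bp downstream that held 3.59 to 4.63 CPM in the baseline and 2.70, 2.60 and 1.71 CPM at 24hpa, a log2 fold change of -0.91. Its 25 windows together differed by 0.05 (95% interval -0.1 to 0.19). Nfatc4, a calcium-regulated transcription factor, was named by the study for neuron differentiation rather than for axons or migration. Its window 6501 bp downstream held 4.09 to 6.83 CPM in the baseline and 7.65 to 9.50 CPM at 24hpa. Each of these windows was the one with the smallest p of its gene.

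Over all windows, 2.58% were higher and 2.61% lower at an unadjusted p under 0.05, together 5.19%. Of 211 windows of neural progenitor genes 3 were higher and 7 lower at an unadjusted p under 0.05 (4.74%), and of 285 windows of neuron genes 13 were higher and 7 lower (7.02%). For axon guidance and growth the counts were 11 and 4 of 448 windows (3.35%), for regeneration signalling 12 and 8 of 590 (3.39%), and for cell cycle and replication 8 and 6 of 194 (7.22%). The AP-1 and immediate early list had 6 higher and 6 lower of 150 (8.0%), and matrix and matrix proteases 11 higher and 2 lower of 211 (6.16%). Medians of the log2 fold change ran from -0.014 for cell cycle and replication to 0.072 for skeletal muscle and for blood, vessel and immune genes, against -0.006 over all windows. None of these windows was called.

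**Figure D5:**
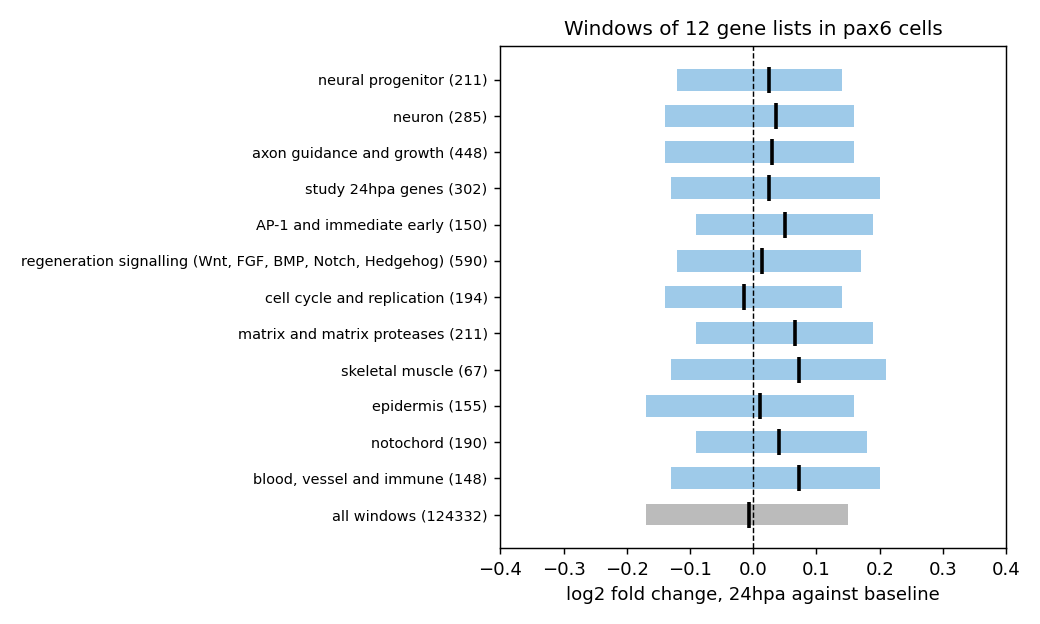
Log2 fold change of 24hpa against baseline (x axis) for the windows of each gene list (y axis, number of windows in parentheses), with the median as a black bar and the interquartile range as a coloured bar. The medians lie between -0.014 and 0.072, and that of all 124332 windows (grey) at -0.006.

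Of the 306 list genes with a window, 10 had a TSS-nearest window with separated samples at an unadjusted p under 0.05, and all 10 were on the higher side. By the same rule, 395 of the TSS-nearest windows of all 23175 genes were higher (1.7%) and 281 lower (1.21%). Uninjured replicate 2 was the lowest of the 7 samples at 7 of the 10 windows, and at 33.6% of the TSS-nearest windows of all genes. Without that library all 10 had a log2 fold change above 0, which their separation had fixed in advance. Of the 10, 7 then had an unadjusted p under 0.05 in edgeR, in samples that had already served to pick them. Sox3, a SoxB1 factor that keeps neural progenitors undifferentiated, held 2.85, 4.09, 3.26 and 4.39 CPM in the baseline and 6.45, 4.97 and 5.76 CPM at 24hpa, a log2 fold change of 0.63 (95% interval 0.15 to 1.1). The sum of its 16 windows differed by 0.09 (95% interval -0.06 to 0.25). Prom1, a membrane protein of progenitor cells, held 5.12 to 6.87 CPM and then 7.79 to 8.13 CPM at a window 4095 bp upstream. The whole progenitor list had 3 windows higher and 7 lower at an unadjusted p under 0.05. Of the guidance receptors, robo1 held 4.61 to 6.83 CPM and then 7.65 to 8.88 CPM at a window 7949 bp upstream. Nrp2 held 3.07 to 5.70 CPM and then 6.10 to 7.48 CPM. Lef1, a transcription factor through which Wnt signalling acts, held 2.81 to 3.59 CPM in the baseline and 3.84 to 6.08 CPM at 24hpa. The remaining members were cebpb, fosl1 and the integrin gene itgav, whose window lay 3144 bp downstream, beside pbx3 and runx2 above.

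AP-1 factors of the Fos and Jun families respond early to wounding in many tissues. Fosl1 had 1 window, 1260 bp upstream of its TSS, with 4.22, 2.56, 3.59 and 4.07 CPM in the baseline and 7.2, 5.2 and 6.54 CPM at 24hpa. Its log2 fold change was 0.72 (95% interval 0.25 to 1.18). Junb had 4 windows, all with a log2 fold change above 0 and 3 of them at an unadjusted p under 0.05. Summed, junb held 32.6 and 23.0 CPM in uninjured samples, 28.0 and 32.3 CPM at 0hpa and 42.3, 36.3 and 36.5 CPM at 24hpa, a log2 fold change of 0.35 (95% interval 0.12 to 0.58) at an adjusted p of 0.873 in edgeR. On the lower side of this list, the windows at an unadjusted p under 0.05 were 2 of mafk and 1 each of nr4a1, nr4a2, nfe2l2 and klf2. Mafk, a small Maf protein that binds DNA as a partner of other leucine zipper factors, held 8.48 to 12.5 CPM in the baseline and 6.66 to 8.25 CPM at 24hpa at its window with the smaller p, and its summed windows differed by -0.19 (95% interval -0.40 to 0.03). Nr4a1, an orphan nuclear receptor, had a window that was lower, at 3.73 to 4.61 and then 2.34 to 2.71 CPM, and another that was higher, at 2.81 to 5.30 and then 5.55 to 7.17 CPM. Its sum over 5 windows differed by 0.11 (95% interval -0.15 to 0.37). The promoter window of cebpb, a leucine zipper factor of myeloid cells from another of the lists, held 3.59 to 5.50 CPM in the baseline and 6.21 to 9.19 CPM at 24hpa. The 16 windows of cebpb together differed by 0.11 (95% interval -0.04 to 0.26). In all-tissue cells the log2 fold changes of the fosl1 and cebpb windows were 0.54 and 0.42, at adjusted p-values of 0.337 and 0.471 in edgeR. Of the windows picked by the same rule, those of pbx3, runx2 and itgav went the other way there, at -0.56, -0.18 and -0.01.

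The all-tissue samples of the same timepoints, collected without a GFP gate, served as a comparison. Their fit also held the pax6 samples, so calls in the tissues were not made at equal power. Of the 90 windows called there, 0 were called in pax6 cells and 10 (11.1%) had an unadjusted p under 0.05, against 5.19% of all pax6 windows, and 54 had the same sign in pax6 cells. The 69 that were higher in all-tissue cells had a median log2 fold change of 1.04 there and 0.07 in pax6 cells, and the 21 that were lower had medians of -0.86 and -0.07. These windows were chosen in all-tissue cells, so their larger values there are part of the choice. A test of the difference between the pax6 and the all-tissue change called 0 of 124341 windows (0.0%) in edgeR, with 8418 (6.77%) at an unadjusted p under 0.05. Without uninjured replicate 2 it called 14, of which 3 were more positive in pax6 cells and 11 more negative, and without 24hpa replicate 3 it called 1.

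The leading pax6 windows varied in how they behaved in all-tissue cells. They were chosen on their pax6 values, which also enter the tissue difference, so a large difference is part of the choice. The tcf4 window differed by -0.07 (SE 0.14) in all-tissue cells and the lep window by 0.40. The difference between pax6 and all-tissue cells was 0.72 for tcf4 (95% interval 0.30 to 1.13) and 0.26 for lep (95% interval -0.12 to 0.63), with adjusted p-values of 0.461 and 0.843 in edgeR. The ndufs8 promoter window went opposite ways, with -1.07 in pax6 cells and 0.81 in all-tissue cells, at an adjusted p of 0.129 for the difference. Of the 24 leading windows, 12 had the same sign in all-tissue cells, 6 on each side.

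The counts of the pax6 libraries were also divided by the distance of their window from a TSS. Windows within 500 bp of a TSS took 6.78% ± 0.204 (SD, n = 3) of counts at 24hpa and 6.51% ± 0.717 (SD, n = 4) in the baseline. Those from 500 to 5000 bp away took 18.6% ± 0.206 and 18.1% ± 0.359, and windows with no annotated gene took 11.1% ± 0.225 and 11.8% ± 0.891. Windows within 500 bp made up 9148 of the 124332 tested. Their median was 4.97 CPM, against 4.81 CPM over all windows and 6.32 CPM for windows with no gene. Promoter windows thus stood little above the rest, and the part of the counts from closed chromatin was not tested. Over 5 distance classes the two-sided exact permutation test gave adjusted p-values between 0.286 and 0.743. With 35 ways to split the samples the smallest p it can give is 0.0571, so this design cannot reach 0.05. Uninjured replicate 2 had the lowest share within 500 bp, 5.52%, and the highest share without a gene, 13.1%. Among windows with no gene, 105 were higher (1.51%) and 282 lower (4.07%) at an unadjusted p under 0.05, while from 500 to 5000 bp there were 694 higher (3.39%) and 517 lower (2.52%). These counts are given for all samples only. Without uninjured replicate 2 the difference between 24hpa and baseline went from 0.271 to -0.0603 percentage points within 500 bp, from 0.437 to 0.259 from 500 to 5000 bp, and from -0.693 to -0.251 for windows with no gene.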

How the data were processed

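ATAC-Seq was measured in pax6 cells sorted by GFP and in all-tissue tail cells, which passed the sorter without a GFP gate. Per the study's methods, Trim Galore trimming was followed by Bowtie2 alignment to genome version 9.0, duplicate removal, MACS2 peak calling over the pooled alignments of every library, featureCounts on fragments no longer than 2000 bp and annotation with the nearest TSS. The values deposited by the authors are raw counts per 400 bp window, without normalization. Whole fragments were counted rather than Tn5 cut sites, so neighbouring windows can share a fragment. The authors' log2 fold changes and p-values in their annotation tables were not used. Their comparison tables gave only the nearest gene and its distance.

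Windows that reached 1 CPM in 2 or more samples were kept, and 24hpa was compared with the baseline by the quasi-likelihood F test of edgeR 4.0.16 (R 4.3.3) with TMM normalization and Benjamini-Hochberg adjustment over all windows. The interval is the log2 fold change and its standard error (SE, from the F statistic) with the fit's t quantile; windows with an unadjusted p above 0.99 were left out of the interval summary. Printed CPM values were scaled by TMM over 27 samples. Counts limit precision at weak windows, and intervals reflect the spread between samples. DESeq2 1.42.0 was an alternative. The code was tested on simulated data. Named were, per direction, the 12 windows and 8 genes with the smallest p among those with a gene symbol and separated samples, the 5 genes with the most windows at an unadjusted p under 0.01, the TSS-nearest and smallest-p windows of the study's 24hpa genes, list members whose TSS-nearest window was separated at an unadjusted p under 0.05, and pax6. Uts2, mhc1a, LOC101732348, Xetrov90027200m.g, junb, actc1, mafk and nr4a1 were added after their values were seen. The comparison and the 12 gene lists were chosen with earlier results of these data known. The baseline of the 2 deepest libraries for genes and for the tissue difference, and the all-tissue fit, were chosen after seeing the data. No window sequence was used here.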

Additional observations from a re-analysis of the deposited data

Results flagged for a closer look

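The baseline of 4 samples was checked for a sample far from the others in 74 sets of values, and 6 sets held one. The rule flags about 1 in 20 independent, unselected sets. Many of the sets here were windows and genes picked in this same comparison, and some overlap, so no excess is read from the count. In 4 of the 6 sets the far sample was uninjured replicate 2. The summed windows of cstf3 held 17.7 CPM in it, against 14.3 to 14.4 CPM in the other 3 baseline samples, and those of fen1 held 32.0 CPM, against 23.9 to 24.3 CPM. Its share of counts from 500 to 5000 bp of a TSS was 17.6%, against 18.3% in each of the others, and its share in windows with no gene was 13.1%, against 11.2% to 11.4%. In the other 2 sets the far sample was 0hpa replicate 2, the shallowest library. It held 2.61 CPM at the unc5a window, against 4.31 to 4.35 CPM, and 3.59 CPM at the sema6a window, against 4.61 to 4.63 CPM. What set these samples apart was not tested.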

How the results depend on the processing

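Counts of calls at an adjusted p under 0.05 were 0 for windows, summed genes, the tissue difference and 0hpa against uninjured. Other normalizations, filters, tools, an adjusted p under 0.1, thinning to the shallowest library and fits over 12 or 13 pax6 samples also gave 0 windows. With pax6 samples left out in turn the counts ran from 0 to 4 for windows, 0 to 4 for genes, 0 to 14 for the tissue difference and 0 to 3364 for 0hpa against uninjured. No all-tissue sample was left out for the tissue difference. Every count above 0 for windows and genes came without uninjured replicate 2. At an unadjusted p under 0.01 these comparisons had 1170, 244, 1984 and 1313 features, and windows had 6456 under 0.05. The baseline of the 2 deepest libraries gave 3 genes and 2 windows for the tissue difference. With the replicate number as a block the calls were 0, 0 and 0, and 2 for 0hpa against uninjured; the numbers were not taken to pair the samples, since same-numbered samples correlated at 0.007 to 0.07, all under 0.1, although every differently numbered pair was lower, at -0.05 to 0.006. The difference in the share of counts within 500 bp ran from -0.0603 to 0.51 percentage points, and it changed sign without uninjured replicate 2. The TSS-nearest window of isl1 turned from 0.15 to -0.03 against uninjured samples alone, and that of meis1 from 0.17 to -0.01 against 0hpa alone, to -0.03 when thinned and to between -0.03, without uninjured replicate 2, and 0.29 with a sample left out. The median of axon guidance and growth was 0.044 by library size alone. All 24 leading windows kept their direction in these fits. They were picked for separated samples, so leaving samples out could hardly turn it. Thinning moved the log2 fold change of the psmc5 window from 1.05 to 0.14, of bub3 from -1.06 to -0.57 and of pdzrn3-like.2 from -0.91 to -0.60. A baseline of 0hpa alone moved that of ubxn2b from 0.84 to 0.53. Thinning also moved the TSS-nearest windows of nrp2 from 0.45 to 0.09, cebpb from 0.65 to 0.39, lef1 from 0.57 to 0.36 and robo1 from 0.39 to 0.64. The cause of these shifts was not tested. Depth leaves weak windows the widest intervals.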
